A study of Rattus norvegicus with 18 samples.

Results

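Untreated rat astrocytes were compared with untreated rat microglia, both grown in primary culture, by sequencing of their messenger RNA. The libraries titled as control replicates 1 to 3 of each cell type were taken, 6 of the 18 libraries of the series, with the 16704 gene symbols that the count tables of both cell types list. Both groups are labelled as wild type (WT), brain, control and 24 h, so that they share genotype, tissue, treatment and time and differ in cell type. The remaining libraries hold the same cells after 24 h with fibrils of Aβ42 or of Aβ40. By the study's methods the cells came from the cortex of newborn Sprague-Dawley rats. Mixed glia were grown in serum, microglia were shaken off, and the cells that stayed attached after longer shaking were replated as astrocytes. Serum was withdrawn before the 24 h, and the control wells received no fibrils. Nothing in the labels says that replicates came from separate animals or cultures, so the p-values below cover only the spread between these samples.

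Astrocytes take up glutamate and potassium, hold the water channels of the brain's borders, supply lipids and lactate, and secrete proteins that shape synapses. Microglia are the resident macrophages of the brain. They descend from yolk sac progenitors, depend on the CSF1 receptor and the factor PU.1, and carry receptors for microbial products, antibodies, complement and nucleotides. In culture both cell types are known to drift from their state in tissue, and serum and the loss of neurons are part of that setting.

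The control astrocyte libraries held 3674043, 3949126 and 13768995 counts on genes, and the control microglia libraries 8249339, 5098145 and 6648595. Counts were scaled to CPM, a gene's counts relative to those of its library, with factors that also correct for composition, and the detection limit, set at 3 counts, came to between 0.201 and 0.809 scaled CPM. Such limits cover counting error only. The 10869 genes that passed edgeR's filter on low counts were tested by its quasi-likelihood test with Benjamini-Hochberg adjustment over all of them. A gene is named as called at 5-fold where the adjusted p is under 0.05 and the fitted fold is 5 or more, and as called at any fold where the adjusted p is under 0.05 whatever the fold. Differences are fitted log2 values of astrocytes minus microglia with their standard error (SE), from 3 libraries against 3. Where a whole group lies at or under 3 counts in every library, the fold is given as a lower bound from a floor of 3 counts per library.

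Astrocyte control replicate 2 stood apart from the other astrocyte libraries. Its correlation with them across genes was 0.946 and 0.943, against 0.984 between replicates 1 and 3, and the microglia libraries correlated at 0.988 to 0.994. The SD of its deviations from the group was 0.458 on the log2 scale, against 0.292 and 0.303 in the other astrocyte libraries and 0.167 to 0.221 in microglia. In replicate 2, 34.2% of the counted reads fell off genes, against 28.9% and 28.7% in replicates 1 and 3 and 21.7% to 24.5% in microglia. Without it, 1258 genes were called at 5-fold as higher in astrocytes and 958 as higher in microglia, of which 1131 and 871 were also called with it.

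The cultures differed over a large share of the transcriptome. At 5-fold, 1167 genes (10.7% of those tested) were higher in astrocytes and 899 (8.27%) were higher in microglia. At any fold, 3417 genes (31.4%) were higher in astrocytes and 3340 (30.7%) in microglia. In 7424 genes (68.3%) all libraries of a cell type lay on 1 side of all of the other, and the median difference over all tested genes was -0.0013. Among the 5-fold calls, 248 of the genes higher in astrocytes lay at the detection limit in every microglia library and 77 of the genes higher in microglia lay there in every astrocyte library. In 223 and 69 of these the lower bound itself reached 5-fold. These are bulk cultures, in which fewer cells of a type and less RNA per cell cannot be told apart. The balance between the directions depended on the scaling: astrocytes held 50.6% of the calls at any fold, and 62.5% when only library totals were used. Library totals moved the median difference of all genes by 0.27 and upper quartile factors by 0.17, both toward astrocytes, so small differences are read against that shift.

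**Figure D1:**
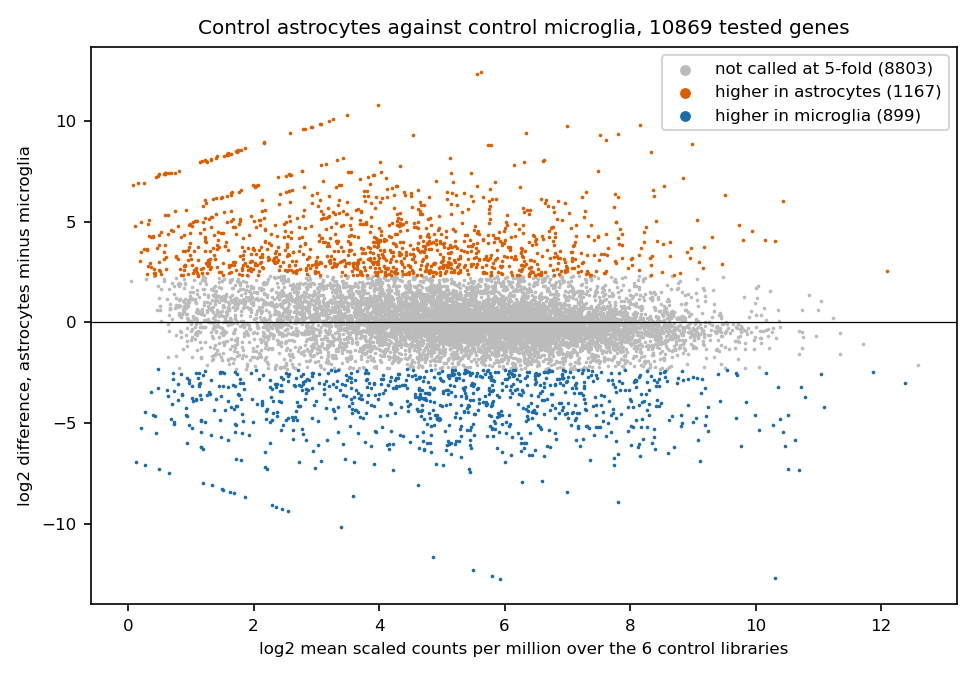
Fitted log2 difference of astrocytes minus microglia (vertical axis) against the log2 mean of scaled CPM over the 6 control libraries (horizontal axis) for the 10869 tested genes. Each point is a gene, orange for the 1167 called at 5-fold as higher in astrocytes and blue for the 899 called as higher in microglia, and the slanted lines of points at the edges are genes at or near 0 counts in a whole group.

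The genes with the smallest p-values are given first. Monoamine oxidase B, encoded by Maob, which degrades dopamine and other amines, stood at 339.8, 413 and 349 scaled CPM in astrocytes and at 0.534, 0.661 and 0.515 in microglia. All astrocyte libraries were high and all microglia libraries close to 0, and the difference was 9.31 ± 0.25 (SE, adjusted p = 6.06e-08 by edgeR's quasi-likelihood test). The calcium-binding protein Calb1 (9.80 ± 0.34), the urea transporter Slc14a1 (at least 309-fold higher), the ribonuclease Rnase4 (9.02 ± 0.29) and the leukemia-associated membrane protein Baalc (at least 487-fold higher) followed it. So did the calcium-binding S100a16 (6.47 ± 0.21), the axonemal dynein chain Dnali1 (6.21 ± 0.21), the heparan sulfate proteoglycan Gpc4 (5.76 ± 0.20), the tissue plasminogen activator Plat (6.29 ± 0.22) and the glutamate transporter Slc1a3 (4.53 ± 0.17). On the microglial side, the gelatinase Mmp9 stood at 517, 418 and 407 scaled CPM in microglia and at 1.08, 0.692 and 0.937 in astrocytes, a difference of -8.91 ± 0.25 (SE, adjusted p = 6.06e-08). Every microglia library was far above every astrocyte library. The F4/80 antigen Adgre1 (-7.25 ± 0.22), the Fc receptor Fcgr2b (-6.83 ± 0.23), the integrin beta chain Itgb2 (-5.81 ± 0.20), the co-receptor Cd4 (-6.19 ± 0.21) and the aminopeptidase Anpep (-6.16 ± 0.21) are surface proteins of macrophages. The schlafen Slfn2 (-6.16 ± 0.18), the adaptor Stap1 (-7.93 ± 0.25), the copper oxidase hephaestin Heph (-6.51 ± 0.21) and the haematopoietic factor Lmo2 (-5.41 ± 0.18) completed the 10.

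Defining astrocyte genes were high in the astrocyte libraries and low in the microglia libraries. Of 20 astrocyte markers, 17 passed the filter, 14 were called at 5-fold as higher in astrocytes and 16 at any fold. Their median difference was 4.83, or 4.53 with genes at the detection limit set to their bound, against -0.0013 over all tested genes. Gfap, the intermediate filament protein of astrocytes, stood at 3327, 1816 and 3041 scaled CPM in astrocytes and 49.7, 37.5 and 38.3 in microglia, a difference of 6.02 ± 0.29 (SE, adjusted p = 1.45e-07). Replicate 2 was the lowest astrocyte library and was still far above every microglia library. The water channel Aqp4 stood at 1345, 1807 and 1166 against 19.9, 21.2 and 13.9, with replicate 2 the highest astrocyte library, and differed by 6.30 ± 0.27. Mlc1, a membrane protein of astrocyte endfeet, stood at 1256, 653 and 1139 against 3.34, 1.10 and 1.72 and differed by 8.85 ± 0.42, the most of the list. The folate enzyme Aldh1l1 (37.5, 27.9 and 46.2 against 0.401, 0.441 and 0.515) lay at the detection limit in all microglia libraries and was at least 70.7-fold higher in astrocytes. Further calls were the neurotensin receptor Ntsr2 (at least 48.9-fold higher), the cystathionine synthase Cbs (at least 15.8-fold higher), the gap junction protein Gja1 (5.04 ± 0.24), the calcium-binding S100b (4.85 ± 0.24), the factor Sox9 (4.83 ± 0.29), the bicarbonate cotransporter Slc4a4 (4.26 ± 0.34), the sodium pump subunit Atp1b2 (4.22 ± 0.20), the receptor Fgfr3 (3.24 ± 0.32) and the aldolase Aldoc (3.17 ± 0.21).

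Some astrocyte markers separated the cultures little or not at all. Glul, the glutamine synthetase, stood at 1709, 1099 and 1284 scaled CPM in astrocytes and at 1202, 1229.9 and 1428 in microglia. The groups overlapped, the difference was 0.08 ± 0.19 (SE) and the adjusted p was 0.722. Slc1a2, the main glutamate transporter of adult forebrain astrocytes, was low in both cultures, at 4.58, 6.45 and 4.48 and 2.00, 2.65 and 1.89, and differed by 1.24 ± 0.31. Acsbg1, a fatty acid activating enzyme, differed by 1.03 ± 0.19. The connexin Gjb6, the angiotensinogen gene Agt and the glycogen-targeting subunit Ppp1r3c did not pass the filter: Agt reached 3.23, 0.922 and 4.28 CPM in astrocytes, Gjb6 0.539, 0.692 and 0.335, and Ppp1r3c 0, 0.231 and 0.

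Defining microglial genes showed the opposite pattern. Of 20 microglia markers, all of which were tested, 16 were called at 5-fold as higher in microglia and 17 at any fold, with a median difference of -4.11. Csf1r, the receptor on which microglia depend for survival, stood at 2736, 2651 and 3092 scaled CPM in microglia and at 119.9, 109 and 127 in astrocytes, a difference of -4.57 ± 0.18 (SE, adjusted p = 6.09e-08). The leukocyte phosphatase Ptprc, known as CD45, stood at 1592, 1839 and 1721 against 21.3, 33.7 and 20.7 and differed by -6.10 ± 0.25, the most of the list. The cysteine protease cathepsin S, encoded by Ctss, stood at 853, 767 and 967 against 38.8, 36.7 and 33.8 and differed by -4.57 ± 0.18. In each of these genes all microglia libraries lay several-fold above all astrocyte libraries, and none of the astrocyte libraries was at 0. The lysosomal glycoprotein Cd68 (-5.41 ± 0.21), the lipid receptor Trem2 (-5.13 ± 0.31), the integrin Itgam (-4.75 ± 0.23), the lysosomal protein Laptm5 (-4.73 ± 0.18), the purine receptors P2ry13 (-4.68 ± 0.43) and P2ry12 (-4.36 ± 0.31), the receptor Gpr34 (-4.15 ± 0.24), the calcium-binding Aif1 (-4.07 ± 0.22) and the signalling adaptor Tyrobp (-4.07 ± 0.17) were called. The complement chains C1qa (-3.83 ± 0.38), C1qc (-2.96 ± 0.26) and C1qb (-2.69 ± 0.24) were called with smaller differences.

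Several genes used to tell microglia from other macrophages went against the list or differed little between the cultures. Sall1, a zinc finger factor of homeostatic microglia in the brain, stood at 225, 193 and 206 scaled CPM in astrocytes and at 57.4, 54.0 and 58.8 in microglia. All astrocyte libraries were above all microglia libraries, and the difference was 1.87 ± 0.15 (SE, adjusted p = 3.16e-06). Olfml3, a secreted protein of the same set, stood at 32.6, 30.9 and 32.5 against 5.34, 8.60 and 6.87 and was also higher in astrocytes, by 2.22 ± 0.23. Tmem119 was low in both cultures, at 4.41, 4.85 and 4.64 in microglia and 2.16, 1.38 and 4.22 in astrocytes, and was not called (adjusted p = 0.156). The fractalkine receptor Cx3cr1 stood at 35.8, 40.1 and 49.1 in microglia and 24.3, 33.0 and 17.9 in astrocytes and differed by only -0.75 ± 0.25. That call was lost without astrocyte replicate 1 or 3 or microglia replicate 2 or 3 (adjusted p up to 0.108) and with library totals, and without astrocyte replicate 3 Tmem119 was called (adjusted p = 0.0142). In Tmem119 and Cx3cr1 every microglia library still lay above every astrocyte library. None of these 4 genes was higher in microglia by 5-fold. Without microglia replicate 2, and with library totals or upper quartile factors, 1 of the microglia markers was called at 5-fold as higher in astrocytes.

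**Figure D2:**
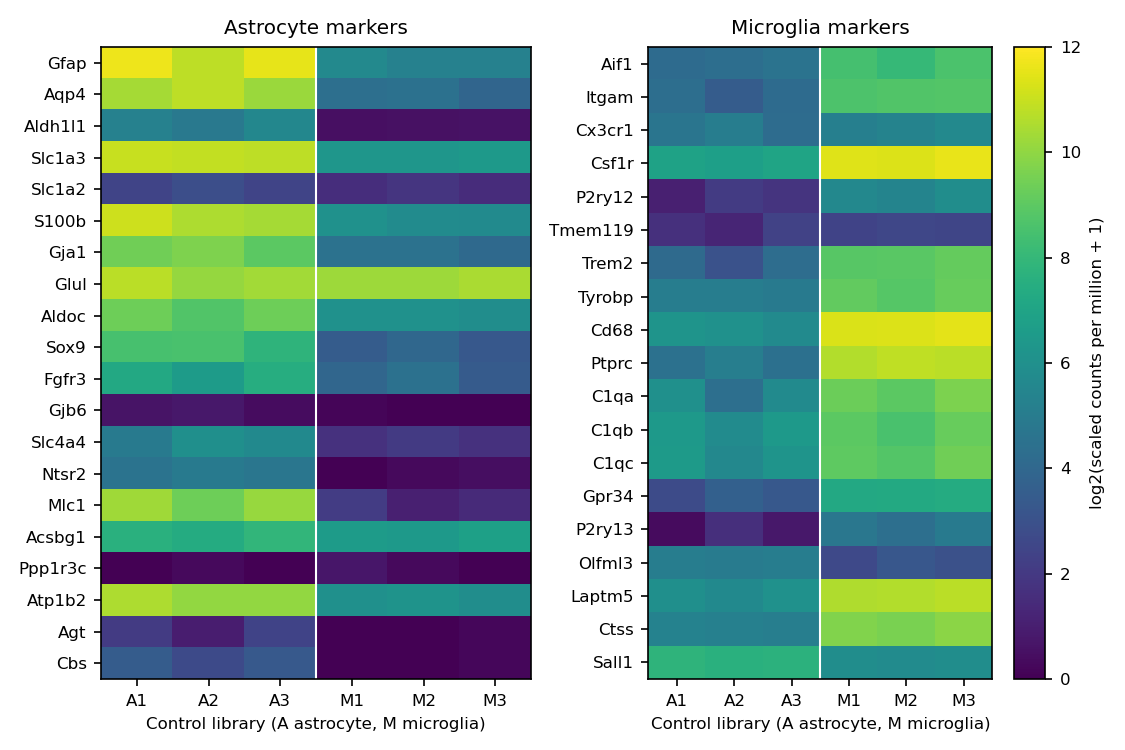
Levels of the 20 astrocyte markers (left) and 19 microglia markers (right) in the 6 control libraries, as log2 of scaled CPM plus 1 on the colour scale, with astrocyte libraries A1 to A3 and microglia libraries M1 to M3 in columns. Gfap, Aqp4 and Slc1a3 are high in astrocytes alone, Csf1r, Cd68 and Ptprc in microglia alone, Glul is high in both, and Sall1 and Olfml3 are higher in astrocytes.

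Promoter sequences are shown for 4 genes that were called, a pair from each direction, because they differ between the cultures and hold a motif of a factor in the lists described here. They were chosen after the values and motif matches were seen. The sequences are from RefSeq (build GRCr8), run 5′ to 3′ on the strand of the gene and span 300 bases around the annotated start. The capitals mark matches, on either strand, to the PU.1 motif GAGGAAGT (read as ACTTCCTC on the other strand), the nuclear factor I (NFI) motif TTGGCA, whose other strand reads TGCCAA, or the TATA motif TATAAA, whose other strand reads TTTATA. Ctss lies at chr2:185775146-185775445 (+) and holds a PU.1 and a TATA match. Kcnj2, the inward rectifier potassium channel of microglia described with the channels, lies at chr10:96559975-96560274 (+) and holds a PU.1 and an NFI match. Slc1a3, at chr2:59557738-59558037 (-), holds an NFI match and is listed with 3 starts, of which 1 is shown. Mlc1, at chr7:121946649-121946948 (-), holds 2 NFI matches.
Ctss: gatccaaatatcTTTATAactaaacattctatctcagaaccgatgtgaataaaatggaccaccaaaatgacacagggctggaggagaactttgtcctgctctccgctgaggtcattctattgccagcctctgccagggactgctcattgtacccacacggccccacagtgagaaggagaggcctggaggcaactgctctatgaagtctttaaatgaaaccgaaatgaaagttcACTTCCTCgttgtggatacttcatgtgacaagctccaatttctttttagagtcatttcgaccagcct
Kcnj2: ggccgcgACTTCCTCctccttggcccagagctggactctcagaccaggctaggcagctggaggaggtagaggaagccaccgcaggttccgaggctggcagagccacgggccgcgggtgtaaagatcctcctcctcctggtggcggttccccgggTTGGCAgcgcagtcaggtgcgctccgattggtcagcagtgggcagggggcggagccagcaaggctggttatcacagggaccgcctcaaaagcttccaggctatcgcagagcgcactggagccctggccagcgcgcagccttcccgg
Slc1a3: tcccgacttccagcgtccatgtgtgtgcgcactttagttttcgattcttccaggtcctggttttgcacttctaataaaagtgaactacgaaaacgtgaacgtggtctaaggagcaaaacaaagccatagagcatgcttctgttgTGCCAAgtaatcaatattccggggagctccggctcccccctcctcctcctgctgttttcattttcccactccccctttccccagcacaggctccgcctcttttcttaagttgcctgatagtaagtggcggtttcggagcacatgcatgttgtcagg
Mlc1: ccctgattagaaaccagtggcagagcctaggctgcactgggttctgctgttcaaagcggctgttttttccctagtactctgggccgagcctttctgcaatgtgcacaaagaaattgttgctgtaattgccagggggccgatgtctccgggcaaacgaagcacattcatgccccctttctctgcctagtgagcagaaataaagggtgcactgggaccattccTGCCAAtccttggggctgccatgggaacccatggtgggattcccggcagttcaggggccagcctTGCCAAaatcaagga

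Such matches occurred across the whole promoter table, so they are a description of these windows and not evidence of binding. The PU.1 motif was present in 2.42% of all 33469 promoters and in 2.47% of the promoters of tested genes, of which 8568 of 10869 had at least 1 promoter in the table. It was present in 1.44% of the promoters of genes called at 5-fold as higher in astrocytes (858 of 1167 genes matched) and in 6.17% of those higher in microglia (659 of 899 matched). The NFI motif was present in 14% of all promoters, 10.8% of those of tested genes, 13.2% of those higher in astrocytes and 14.4% of those higher in microglia. The AP-1 motif TGACTCA was present in 4.63%, 3.31%, 3.89% and 6.17% of the same sets. The TATA motif was present in 14.2%, 6.53%, 8.67% and 12.5%. The differences between these shares were not tested.

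Markers of other brain cells were present in both cultures. The 12 oligodendrocyte lineage markers were all tested and summed to 3306, 2219 and 2966 scaled CPM in the astrocyte libraries and 3115, 3458 and 3141 in the microglia libraries, with a median difference of -0.40. Olig1, a factor of oligodendrocyte precursors and the most abundant of them in astrocytes, stood at 718, 304 and 673 against 81.1, 87.7 and 66.3 in microglia and was called at 5-fold (2.85 ± 0.31). Without astrocyte replicate 2, or without microglia replicate 1, 2 markers were called. Cspg4 (2.26 ± 0.30), Olig2 (1.58 ± 0.23) and Pdgfra (0.61 ± 0.14), genes of precursor cells, were also higher in astrocytes. The myelin genes Mbp (-1.42 ± 0.21), Mag (-1.38 ± 0.27), Ugt8 (-0.94 ± 0.21) and Mog (-0.66 ± 0.25) and the precursor receptor Gpr17 (-0.64 ± 0.18) were higher in microglia, and Mbp, the most abundant there, stood at 988, 1012 and 997 against 477, 264 and 376. Sox10 (0.45 ± 0.23) and Cnp (-0.15 ± 0.20) were not called. Leaving out any library but astrocyte replicate 2 ended the call of Mog (adjusted p up to 0.123), and without astrocyte replicate 1 or microglia replicate 1 that of Gpr17 ended (up to 0.0583). Without astrocyte replicate 2, Sox10 was called (adjusted p = 7.61e-04).

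Neuronal markers were low to moderate. The 12 genes summed to 609, 635 and 567 scaled CPM in astrocytes and 742, 786 and 686 in microglia, and 10 were tested, with a median difference of -0.82. Dcx, the microtubule protein of migrating neurons, stood at 308, 355 and 276 in microglia and 43.4, 82.8 and 45.1 in astrocytes and was called at 5-fold (-2.46 ± 0.26), a call that dropped under 5-fold without astrocyte replicate 1 or 3 and with library totals or upper quartile factors. The tubulin Tubb3 (-2.03 ± 0.27), the synaptic genes Snap25 (-1.83 ± 0.36) and Syt1 (-1.30 ± 0.32) and the glutamate decarboxylase Gad1 (-1.33 ± 0.23) were also higher in microglia. Stmn2 (2.18 ± 0.16), the most abundant in astrocytes, and the neurofilament genes Nefm (1.28 ± 0.33) and Nefl (at least 4.19-fold) were higher in astrocytes. Without astrocyte replicate 1, astrocyte replicate 2 or microglia replicate 2, 1 neuronal gene was called at 5-fold as higher in astrocytes. Map2 (-0.30 ± 0.24) was not called with all libraries but was without astrocyte replicate 2 (adjusted p = 8.04e-04), Rbfox3 (-0.34 ± 0.31) was not called, and Slc17a7 did not pass the filter and was at 0 in every microglia library.

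Vascular and connective tissue markers split between the cultures. Of the endothelial markers, 9 were listed for both cell types and 6 tested. Flt1, a receptor for vascular growth factor that macrophages also express, stood at 184, 174 and 176 scaled CPM in microglia and 1.35, 2.54 and 2.34 in astrocytes (-6.35 ± 0.23), and Kdr (-3.51 ± 0.34) and Esam (-2.86 ± 0.31) were called with it. Without astrocyte replicate 2, 5 markers were called in that direction. Pecam1 (-1.68 ± 0.41) and Cdh5 (-1.19 ± 0.37) were higher in microglia at any fold, Tek and Tie1 did not pass the filter, Ocln was higher in astrocytes (0.76 ± 0.19), and the junction protein Cldn5 was at 0 in all 6 libraries. The endothelial sums were 204, 294 and 198 in astrocytes and 352, 360 and 365 in microglia, mostly from Ocln in astrocytes and from Flt1 and Ocln in microglia, with a median difference of -2.27. The call of Cdh5 ended without astrocyte replicate 3 or microglia replicate 1 or 3 (adjusted p up to 0.0827). Mural markers summed to 1301, 816 and 945 in astrocytes and 340, 343 and 296 in microglia, mostly from the contractile protein Tagln (1.73 ± 0.21). Pdgfrb (2.95 ± 0.26) was called, Myh11 (0.98 ± 0.22) was higher in astrocytes at any fold, Acta2 (0.52 ± 0.24) was called without astrocyte replicate 3 (adjusted p = 0.0199) but not with all libraries, and Rgs5, Kcnj8, Abcc9, Des and Vtn did not pass the filter, the first 3 at 0 in every microglia library. The median over the 4 tested was 1.35. Without astrocyte replicate 2 or microglia replicate 2, 2 mural markers were called.

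Fibroblast and meningeal markers summed to 864, 810 and 701 scaled CPM in astrocytes and 176, 205 and 160 in microglia. All 5 tested were higher in astrocytes at any fold, with a median of 2.52 (2.40 with bounds). The mucin-like Pdpn, which astrocytes also make and which held most of the sum (2.52 ± 0.17), the collagen Col1a2 (3.75 ± 0.50) and the factor Foxc1 (at least 5.26-fold higher) were called, Col3a1 differed by 2.11 ± 0.18 and Col1a1 by 0.67 ± 0.18, and Dcn, Lum, Slc6a13 and Twist1 did not pass the filter. Among markers of border macrophages and blood leukocytes, the mannose receptor Mrc1 stood at 1089, 1065 and 1139 in microglia and 5.12, 12.2 and 9.84 in astrocytes (-6.89 ± 0.28) and the chemokine Pf4 at 114, 99.9 and 118 and 2.70, 3.46 and 4.55 (-4.86 ± 0.23). Both are genes of border macrophages. The haemoglobin receptor Cd163 and the T cell gene Cd3e were at 0 in all 6 libraries, the neutrophil genes S100a8 and S100a9 stayed under 1 CPM, and Lyve1 overlapped (0.44 ± 0.35). The list summed to 18.9, 21.9 and 21.4 in astrocytes and 1209, 1169 and 1265 in microglia, with Mrc1 most abundant in both and a median of -4.86 over 3 tested genes. Without microglia replicate 3 the call of Col1a1 ended (adjusted p = 0.0558). What part these cell types had in any difference was not tested.

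Genes of 2 further cell programmes were among those with the largest fitted differences, a ranking that depends on the fit where a group is at 0 and took genes with at least 10 counts in every library of the higher group. In microglia the first 5 were Ttr, the thyroxine carrier of the choroid plexus, the serotonin receptor Htr2c and the co-receptor Kl, with the proteasome subunit Psmb6 and the splicing factor Crnkl1. Ttr stood at 2241, 2879.5 and 2530.4 scaled CPM in microglia and 0.809, 0.922 and 0.0669 in astrocytes (-12.68 ± 0.47, adjusted p = 6.09e-08). Htr2c (97.4, 133 and 102) and Kl (71.7, 123 and 76.8) were at 0 in all control astrocyte libraries and so were at least 196-fold and at least 159.5-fold higher in microglia. A list of 33 genes of choroid plexus epithelium, drawn up after these values were seen, had 27 tested members, of which 20 were called at 5-fold and 23 at any fold as higher in microglia, with a median of -4.53 (-4.39 with bounds). It summed to 4934, 6304 and 5251 in microglia and 281, 274 and 279 in astrocytes, with Ttr the most abundant in microglia. The bicarbonate cotransporter Slc4a5 (-5.50 ± 0.27), the water channel Aqp1 (-6.35 ± 0.24), the coagulation factor F5 (-6.60 ± 0.25), Clic6 (-4.93 ± 0.24) and the lipid enzyme Enpp2 (-4.07 ± 0.29) were among them, while Folr1 (0.51 ± 0.24), Krt8 and Krt18 were not called with all libraries but were called as higher in astrocytes, against the direction of the list, without astrocyte replicate 2 (adjusted p = 1.38e-04, 0.0021 and 0.0402), Msx1 was not called, and the epithelial genes Cdh1, Epcam, Otx2 and Prlr did not pass the filter. The part of this signal in the microglial differences was not tested.

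Genes of motile cilia were among the 5 with the largest fitted differences toward astrocytes. The inter-alpha-trypsin inhibitor chain Itih3 and the potassium channel Kcnh3 stood beside Ppp1r32, Tmem212 and Odf3b, which are genes of ciliated cells, and all 5 were at 0 in every control microglia library. The lower bounds were 188-fold for Itih3 (106, 81.6 and 108 scaled CPM in astrocytes), 179.9-fold for Ppp1r32 (125, 51.9 and 107), 60.1-fold for Tmem212, 42.6-fold for Odf3b and 36.7-fold for Kcnh3. Measured folds of Calb1, Maob and Rnase4 were larger than each of these bounds. Replicate 2 was the lowest astrocyte library in all 5. In a list of 30 genes of motile cilia, also drawn up after the values were seen, 21 were listed for both cell types and all 20 tested were called at 5-fold as higher in astrocytes, with a median of 5.84 (5.48 with bounds). The sums were 3274, 3093 and 3035 in astrocytes and 99.5, 128 and 101 in microglia. Foxj1, the factor that drives motile ciliogenesis, stood at 624, 192 and 509.7 against 15.8, 17.4 and 19.8 (4.65 ± 0.41), with replicate 2 the lowest astrocyte library. The dynein chains Dnai1 (at least 132-fold higher) and Dnai2 (6.34 ± 0.26) and the radial spoke protein Rsph1 (4.51 ± 0.21) followed it. The share of ependymal or other ciliated cells in these cultures was not tested.

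The tables of the cell types differ in the symbols they list, 603 being in the astrocyte table alone and 623 in the microglia table alone, and a 0 need not mean absence. Psmb6, a catalytic subunit of the constitutive proteasome, was at 0 in all control astrocyte libraries and at 128, 97.0 and 141 scaled CPM in microglia, and the splicing factor Crnkl1 was at 0 in astrocytes and at 53.4, 59.3 and 62.4 in microglia. The housekeeping gene Echs1 was near 0 in both (1.35, 0.922 and 0.870 in astrocytes, 0.401, 1.10 and 0.515 in microglia). Over all 18 libraries, 3 genes were at 0 in every astrocyte library with at least 10 counts in each microglia library, namely Crnkl1, Slco1a5 and Htr2c. The reverse held for 5 genes, Aqp9, Thrsp, Krt32, Eddm3b and Ttll2.

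**Figure D3:**
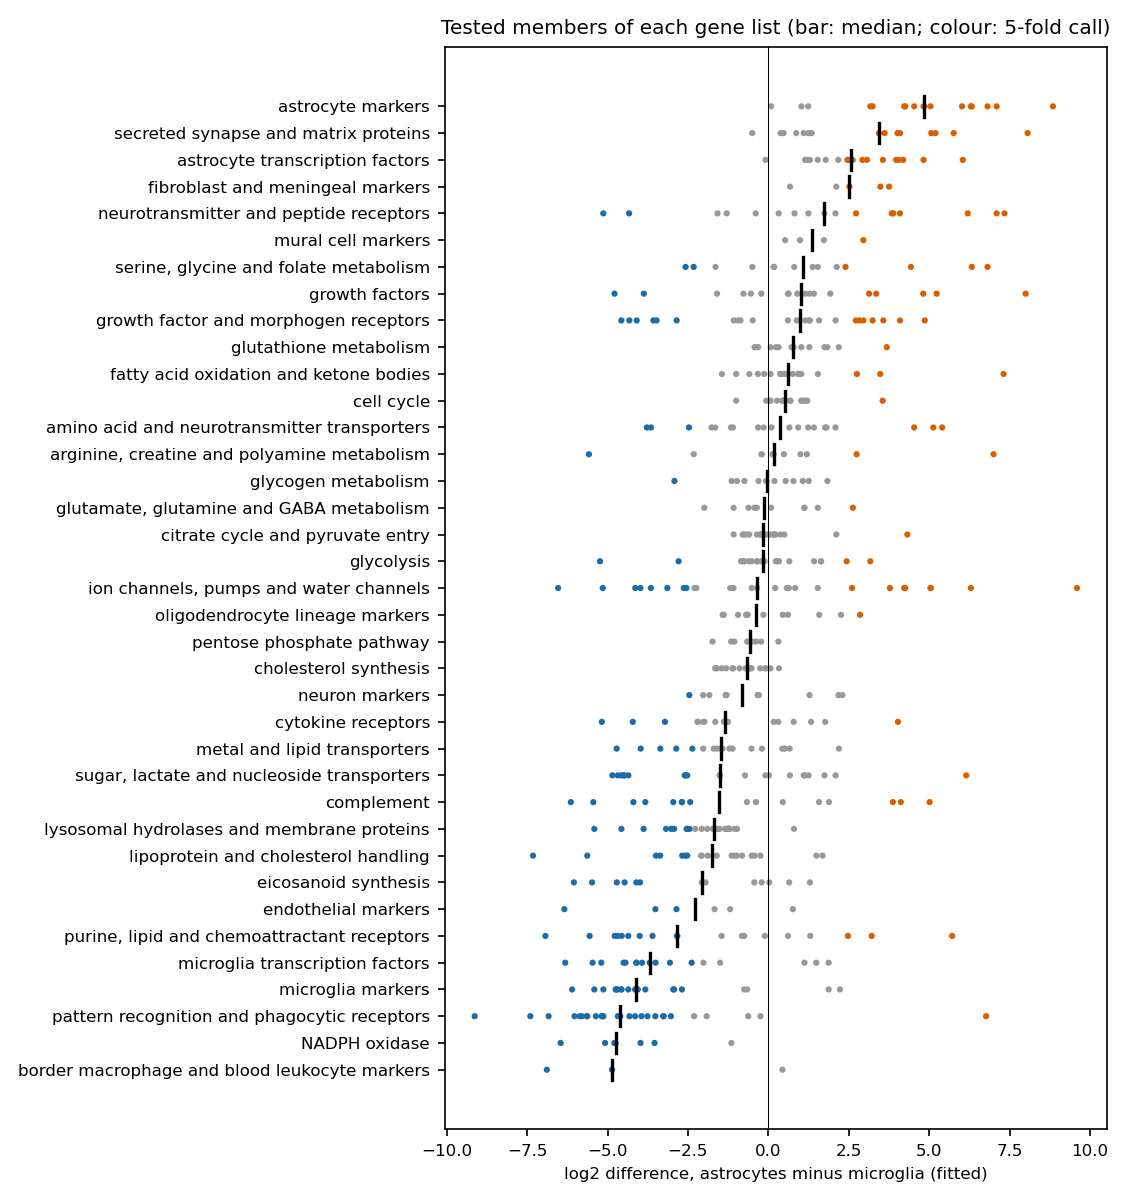
Fitted log2 difference of astrocytes minus microglia (horizontal axis) for the tested members of 37 gene lists (vertical axis), each point a gene and each black bar the median of the list. Orange points are called at 5-fold as higher in astrocytes and blue points as higher in microglia, and the medians run from 4.83 for astrocyte markers to -4.86 for border macrophage and blood leukocyte markers. The motile cilia and choroid plexus lists, drawn up after the values were seen, are not drawn.

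The transcription factors of the lists mostly followed the cell type. Among astrocyte factors 18 were tested, 11 were called at 5-fold and 17 at any fold as higher in astrocytes, with a median of 2.57. Lhx2, a LIM homeobox factor of forebrain progenitors and glia, stood at 255, 185 and 157 scaled CPM in astrocytes and 3.61, 2.42 and 2.75 in microglia, the largest difference of the list at 6.05 ± 0.28 (SE, adjusted p = 1.12e-07). Sox9 stood at 365, 369.5 and 224 against 10.1, 15.2 and 8.76, and every astrocyte library of both genes lay far above the microglia libraries. The forebrain patterning factors Emx2 (4.06 ± 0.30), Otx1 (2.93 ± 0.26) and Pax6 (2.46 ± 0.21), the hedgehog effectors Gli2 (3.97 ± 0.47) and Gli3 (3.56 ± 0.27), the nuclear receptor Rorb (4.19 ± 0.54), the Notch target Hes1 (3.06 ± 0.35) and the progenitor factors Sox2 (2.62 ± 0.19) and Id4 (2.52 ± 0.31) were called. Nfia (1.78 ± 0.17) passed the test at a smaller fold. Nfib was not called (24.0, 42.2 and 23.1 against 30.8, 34.8 and 28.7, adjusted p = 0.781) with all libraries but was called as higher in microglia without astrocyte replicate 2 (0.0225), Hes5 was at 0 in all 6 libraries, and Nfix was not listed for both cell types and is not analysed here.

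Among 17 tested microglial factors, 12 were called at 5-fold and 14 at any fold as higher in microglia, with a median of -3.69. Spi1, which encodes PU.1, stood at 364, 355 and 367 scaled CPM in microglia and 23.7, 9.68 and 16.8 in astrocytes (-4.44 ± 0.28, adjusted p = 6.77e-07). Irf8, its partner in macrophage development, stood at 211, 171 and 230.4 against 14.3, 8.76 and 12.4 (-4.11 ± 0.23). Both genes were lowest in replicate 2 among the astrocytes, and neither overlapped, as was so for 68.3% of all tested genes. Tfec (-6.32 ± 0.39) had the largest difference, followed by Ikzf1 (-5.47 ± 0.29), Fli1 (-5.19 ± 0.22), Irf5 (-4.50 ± 0.30), Tal1 (-4.10 ± 0.24), Lyl1 (-3.93 ± 0.29), Runx1 (-3.51 ± 0.22) and Mef2a (-2.39 ± 0.28), which are factors of blood lineages or, for Mef2a, of several tissues. Maf was higher in microglia, at 189, 211 and 197 against 24.5, 18.2 and 28.0 (-3.06 ± 0.20). Sall1, Sall3 (1.12 ± 0.19) and the inflammatory factor Cebpb (1.49 ± 0.38) were higher in astrocytes, Cebpb with 1 astrocyte library, replicate 2 at 22.1, close to the highest microglia library at 21.4. Batf3 did not pass the filter, and Mef2c and Bhlhe41 are not analysed here.

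Receptors for transmitters and peptides were mainly higher in astrocytes at any fold. Of 22 genes 17 were tested, 7 were called at 5-fold as higher in astrocytes and 2 in microglia, with a median of 1.74. At any fold the counts were 11 and 4. Of all tested genes, 10.7% and 8.27% were called at 5-fold and 31.4% and 30.7% at any fold. The NMDA receptor subunit Grin2c, enriched in astrocytes, was at least 22.4-fold higher (13.2, 5.07 and 17.0 scaled CPM against 0, 0.220 and 0). The adrenergic receptor Adra2a was at least 65.2-fold higher (45.3, 17.3 and 40.4 against 0.401, 0.661 and 0.344), with replicate 2 the lowest astrocyte library. The metabotropic glutamate receptor Grm5 (3.89 ± 0.39), the endothelin receptor Ednra (4.09 ± 0.27), the bradykinin receptor Bdkrb2 (at least 5.04-fold higher) and the adrenergic Adrb1 (2.73 ± 0.45) were called too, beside Ntsr2. In the microglial direction, the serotonin receptor Htr2b was at least 8.62-fold higher in microglia. Grm3, Gabrb1, Adra1a, Adra1b and Agtr1a did not pass the filter, and Gabrb1 and Adra1a were at 0 in every microglia library.

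Purine, lipid and chemoattractant receptors were mainly microglial. Of 22 genes listed for both cell types 19 were tested, 10 were called at 5-fold as higher in microglia and 3 in astrocytes, with a median of -2.83. Over all tested genes, 8.27% were called at 5-fold toward microglia and 10.7% toward astrocytes. The chemokine receptor Ccr1 was at least 42.3-fold higher in microglia (16.8, 30.6 and 24.4 scaled CPM against 0.270, 0.231 and 0.134). The anaphylatoxin receptors C3ar1 (353, 261 and 401 against 6.74, 7.15 and 7.43, -5.56 ± 0.23) and C5ar1 (402, 388 and 407 against 19.7, 17.7 and 14.1, -4.56 ± 0.19) were higher in all microglia libraries. The nucleotide receptors P2rx4 (-2.83 ± 0.16), P2ry6 (-2.84 ± 0.25) and P2ry2 (-4.0 ± 0.36) and the platelet-activating factor receptor Ptafr (-3.60 ± 0.24) joined P2ry12 and P2ry13. Sphingosine phosphate receptors went the other way: S1pr3 stood at 436, 364 and 456 in astrocytes and 7.75, 10.4 and 6.01 in microglia (5.72 ± 0.24, adjusted p = 7.25e-08) and S1pr1 at 224, 190.4 and 160.1 and 16.8, 22.3 and 23 (3.21 ± 0.21). Of the adenosine receptors, Adora1 was called as higher in astrocytes (32.1, 35.7 and 29.4 against 7.48, 3.75 and 5.84, 2.47 ± 0.26), Adora2b differed by 1.30 ± 0.36, a call lost without microglia replicate 1 or 3 (adjusted p up to 0.0685), Adora2a did not pass the filter and Adora3 was at 0 in all 6 libraries. Cxcr4, the receptor for the chemokine CXCL12, was not called (107, 89.0 and 110.1 against 112, 111 and 108). P2ry14 did not pass the filter, and Fpr2 and Lpar5 are not analysed here.

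Growth factor receptors divided by family. Of 26 genes 25 were tested, and 7 were called at 5-fold as higher in astrocytes and 6 in microglia, with a median of 0.99. These counts stand beside 10.7% and 8.27% of all tested genes. Ntrk2, the neurotrophin receptor TrkB, stood at 2379, 2018 and 2042 scaled CPM in astrocytes and 128, 136 and 114 in microglia (4.09 ± 0.17, adjusted p = 7.77e-08). The EGF receptor Egfr (2.72 ± 0.29), Fgfr3, Pdgfrb, Notch3 (at least 12.5-fold higher) and the Wnt receptors Fzd1 (2.83 ± 0.20) and Fzd2 (3.57 ± 0.56) were the other astrocyte calls, and Fzd2 stood at 157, 28.6 and 139.9 with replicate 2 far below the other astrocyte libraries. The microglial calls were receptors for colony-stimulating factors and TGF-beta. Beside Csf1r, Csf3r (-4.32 ± 0.27), Csf2rb (-4.10 ± 0.21) and Csf2ra (-3.48 ± 0.37) bind granulocyte and granulocyte-macrophage factors, and Tgfbr1 stood at 322, 407 and 375 against 43.7, 62.0 and 47.3 (-2.85 ± 0.19) and Tgfbr2 at 286, 259 and 301 against 16.4, 20.7 and 32.1 (-3.57 ± 0.25). The accessory receptor Tgfbr3 was higher in astrocytes (2.09 ± 0.19), under 5-fold. Bmpr1b did not pass the filter.

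Ligands for these receptors were made by both cultures. Tgfb1 stood at 542, 596 and 531 scaled CPM in microglia and 40.4, 38.5 and 35.3 in astrocytes (-3.87 ± 0.16), whereas Tgfb2 (1.15 ± 0.23) and Tgfb3 (1.28 ± 0.20) were higher in astrocytes. Tgfb1 and the signalling receptor genes Tgfbr1 and Tgfbr2 were thus higher in microglia. Of these ligands, Tgfb1 was the most abundant in microglia and Tgfb2 in astrocytes. Of the ligands of CSF1R, Csf1 did not differ by the test (212, 229.8 and 179.5 in astrocytes against 255, 273 and 196 in microglia, adjusted p = 0.298), and Il34 was at least 18.7-fold higher in astrocytes (12.4, 3.92 and 13.1 against 0.267, 0.661 and 0.172). Among 18 tested growth factors, 5 were called at 5-fold as higher in astrocytes and 2 in microglia, beside 10.7% and 8.27% of all tested genes, with a median of 1.02. Fgf2, a basic fibroblast growth factor, was at 0 in microglia and at least 8.57-fold higher in astrocytes, Lif at least 9.43-fold, Hbegf by 3.35 ± 0.20 and Cntf by 3.13 ± 0.27. Igf1 stood at 534, 574 and 577 in microglia and 19.9, 28.4 and 14.2 in astrocytes (-4.78 ± 0.26, adjusted p = 2.63e-07). The neurotrophic genes Bdnf and Gdnf did not pass the filter.

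Cytokine receptors were mostly higher in microglia at any fold. Of 18 tested, 3 were called at 5-fold as higher in microglia and 12 at any fold (8.27% and 30.7% of all tested genes), and 1 and 4 as higher in astrocytes (10.7% and 31.4%), with a median of -1.36. The interleukin 10 receptor Il10ra stood at 95.4, 68.6 and 94.3 scaled CPM in microglia and 2.43, 2.07 and 2.48 in astrocytes (-5.18 ± 0.25), and the tumour necrosis factor receptor Tnfrsf1b (-4.22 ± 0.27) and Il6r (-3.22 ± 0.17) were called with it. Tnfrsf1a, the other receptor for tumour necrosis factor, was not called (334, 235 and 271 in astrocytes against 265, 234 and 249 in microglia). The oncostatin M receptor Osmr was the astrocyte call, at 35.0, 74.0 and 48.1 against 3.07, 4.85 and 1.89 (4.03 ± 0.38), with replicate 2 the highest library. Il6st, the gp130 chain that Osmr and Il6r share, was present in both, at 411, 468 and 389.9 in astrocytes and 247, 245 and 243 in microglia (0.79 ± 0.14). Il18r1 did not pass the filter, and Ifnar2 is not analysed here.

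Receptors for microbes, antibodies and cell debris were almost all higher in microglia. All 27 listed for both cell types were tested, 22 were called at 5-fold and 25 at any fold as higher in microglia, with a median of -4.60 (-4.32 with bounds). Tlr2, which senses bacterial lipoproteins, stood at 444, 384 and 461 scaled CPM in microglia and 5.12, 7.61 and 8.57 in astrocytes (-5.86 ± 0.22, adjusted p = 6.09e-08). The endosomal nucleic acid sensors Tlr9 (-7.40 ± 0.40), Tlr7 (-6.03 ± 0.35) and Tlr8 (-5.80 ± 0.33) differed more than Tlr3 (-3.27 ± 0.31), and the endotoxin receptor genes Tlr4 (-4.60 ± 0.19), Cd14 (-4.32 ± 0.17) and Ly96 (-4.68 ± 0.24) were within a narrow range. Trem1, a receptor that amplifies inflammation, was at 0 in every astrocyte library and at least 18.1-fold higher in microglia (12.3, 10.8 and 7.73). The scavenger receptors Cd36 (-5.63 ± 0.35) and Msr1 (-5.19 ± 0.20) and the Fc receptor Fcgr2a (-5.65 ± 0.29) were called as well. Among receptors for dying cells, Mertk was called (-3.03 ± 0.20), Axl was higher in microglia under 5-fold (-2.31 ± 0.28), and Megf10 went the other way, at 64.7, 100.3 and 116 in astrocytes and 0.668, 0.882 and 1.03 in microglia (6.77 ± 0.35). Lrp1 overlapped between the cultures (-0.25 ± 0.21, adjusted p = 0.323). Cd33 is not analysed here.

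Transporters for amino acids were called toward either culture. Of 20 tested, 3 were called at 5-fold in each direction, beside 10.7% of all tested genes toward astrocytes and 8.27% toward microglia, with a median of 0.38. The glutamate transporter Slc1a3, known as GLAST, stood at 2004, 1919 and 1761 scaled CPM in astrocytes and 79.1, 78.7 and 87.6 in microglia (4.53 ± 0.17, adjusted p = 6.09e-08). Of the other excitatory amino acid transporters, Slc1a2 was low in both and Slc1a1 was higher in microglia (51.5, 56.2 and 48.8 against 21.8, 19.4 and 27.8, -1.16 ± 0.20). The glutamine transporter Slc38a3 stood at 299, 175 and 289 against 4.81, 9.04 and 4.64 (5.40 ± 0.33), and the GABA transporter Slc6a11, known as GAT-3, was at least 31.2-fold higher in astrocytes. The taurine transporter Slc6a6 stood at 283, 294 and 280.4 in microglia and 15.6, 20.5 and 25.2 in astrocytes (-3.78 ± 0.20), and the cationic amino acid transporter gene Slc7a7 (-3.65 ± 0.21) and the neutral amino acid exchanger Slc1a5 (-2.47 ± 0.22) were called with it. The cystine transporter Slc7a11 was higher in astrocytes under 5-fold (2.09 ± 0.25). Slc7a10 and Slc38a5 did not pass the filter.

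Sugar, lactate and nucleoside transporters were mainly higher in microglia, with 9 of 21 tested called at 5-fold against 1 in astrocytes and a median of -1.50. Among all tested genes, 8.27% were called at 5-fold toward microglia and 10.7% toward astrocytes. The glucose transporter Slc2a1 stood at 325, 162 and 299 scaled CPM in astrocytes and 125, 128 and 114 in microglia (1.10 ± 0.24), with replicate 2 the lowest astrocyte library. Slc2a10 was the astrocyte call (6.15 ± 0.45), the fructose transporter Slc2a5 was low and overlapped (-0.09 ± 0.39), and Slc2a3 was at 0 in all 6 libraries. Among monocarboxylate transporters, which carry lactate, Slc16a1 was higher in astrocytes (154, 149 and 166 against 65.2, 65.7 and 66.3, 1.25 ± 0.15). Slc16a7 was higher in microglia (70.8, 73.6 and 70.8 against 3.77, 4.84 and 2.01, -4.48 ± 0.30), as was Slc16a3 at a low level (8.55, 11.7 and 8.25 against 1.08, 0 and 0.335, -4.49 ± 0.53). The organic anion transporter Slco2b1 (-4.85 ± 0.24), the phosphate sugar exchanger Slc37a2 (-4.68 ± 0.27), the nucleoside transporter Slc28a2 (-4.57 ± 0.22) and the lysosomal peptide transporter Slc15a3 (-4.35 ± 0.19) were also called in microglia. Slc16a9 is not analysed here.

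Ion channels and pumps were called in both directions, 8 each at 5-fold among 27 tested, with a median of -0.35. The shares over all tested genes were 10.7% toward astrocytes and 8.27% toward microglia. Aqp9, a channel for water and small solutes, was at 0 in every microglia library and at least 26.9-fold higher in astrocytes (15.1, 12.9 and 14.5 scaled CPM). The potassium channels were divided: Kcnj16 (5.05 ± 0.53) and Kcnk2 (3.78 ± 0.28) were called in astrocytes, and Kcnj2 stood at 73.6, 64.8 and 72.5 in microglia and 0.270, 1.15 and 0.736 in astrocytes (-6.54 ± 0.31, adjusted p = 1.24e-07). Kcnk13 (-3.65 ± 0.30), Kcnk1 (-3.14 ± 0.37) and Kcna3 (-2.63 ± 0.37) were called in microglia, and the astrocytic Kcnj10 differed by only 0.83 ± 0.29, a call lost when any library but astrocyte replicate 2 was left out (adjusted p up to 0.153). The calcium-permeable channels Trpv2 (-5.15 ± 0.18), Trpm2 (-3.98 ± 0.26) and Trpv4 (-2.55 ± 0.32) were higher in microglia. Clcn2 and Gjb6 did not pass the filter, Clcn2 at 0 in every microglia library, and the proton channel Hvcn1 is not analysed here.

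The beta subunits of the sodium pump were split between the cultures. Atp1b2 stood at 1475, 1055 and 1064 scaled CPM in astrocytes and 64.1, 70.5 and 57.7 in microglia, Atp1b1 at 298, 386 and 277 and 1392, 1619 and 1522 (-2.24 ± 0.18), and Atp1b3 at 225, 240.2 and 229 and 491, 563 and 530.1 (-1.19 ± 0.14). In each of these 3 genes the groups did not overlap, as was so for 68.3% of all tested genes.

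Metal and lipid transporters were mainly microglial, with 5 of 18 tested called at 5-fold as higher in microglia and 12 at any fold, and a median of -1.46. Among all tested genes, 8.27% and 30.7% were called in that direction. The iron exporter Slc40a1, known as ferroportin, had the largest difference (17.9, 30.4 and 30.1 against 0.539, 0.461 and 1.34 scaled CPM, -4.72 ± 0.40). The phagosomal metal transporter Slc11a1 (-3.97 ± 0.18), the copper transporters Atp7a (-3.36 ± 0.36) and Slc31a1 (-2.36 ± 0.15) and the sterol exporter Abcg1 (-2.86 ± 0.17) were called with it. The transferrin receptor Tfrc was slightly higher in astrocytes (0.51 ± 0.17), but not called with any microglia library left out (adjusted p up to 0.0902), and the manganese exporter Slc30a10 was the most astrocytic of the list (2.19 ± 0.39). Abcg2 and Abcb1a did not pass the filter, and Abca3 and Abca9 are not analysed here.

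Lists of core energy metabolism had medians near 0. Of 20 tested glycolytic genes, 2 were called at 5-fold in each direction and 6 at any fold in each, with a median of -0.17. Over all tested genes the shares were 10.7% toward astrocytes and 8.27% toward microglia at 5-fold, and 31.4% and 30.7% at any fold. The citrate cycle and pyruvate entry list had 23 tested genes, of which 4 were higher in astrocytes and 5 in microglia at any fold, below those any-fold shares, with a median of -0.16. Glycogen metabolism had a median of -0.06 over 13 tested genes and glutamate, glutamine and GABA metabolism one of -0.14 over 10. These 4 medians lie closer to 0 than the shift that library totals make in all genes.

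Hexokinases, which commit glucose to metabolism, differed in kind. Hk1 stood at 787, 552 and 606 scaled CPM in astrocytes and 221, 212 and 191 in microglia (1.64 ± 0.17), Hk2 at 17.5, 15.2 and 17.0 and 116, 107 and 122 (-2.79 ± 0.17) and Hk3, an isoform of blood cells, at 9.97, 4.84 and 9.77 and 302, 315 and 332 (-5.24 ± 0.26, adjusted p = 1.58e-07). The groups did not overlap for any of them, as was so for 68.3% of all tested genes. Pfkm was the phosphofructokinase called in astrocytes (297, 235 and 282 against 49.7, 51.6 and 49.3, 2.43 ± 0.16), Pfkp differed by 0.65 ± 0.16 and Pfkl overlapped (0.33 ± 0.27), though without astrocyte replicate 2 it was called (adjusted p = 1.24e-04). Aldoc was astrocytic, whereas Aldoa stood at 903, 386 and 855 in astrocytes and 1271, 1222 and 1369 in microglia (-0.85 ± 0.28), replicate 2 being far below the other astrocyte libraries, and its call was lost without microglia replicate 2 or 3 (adjusted p up to 0.0648) and with library totals. Ldhb, the lactate dehydrogenase subunit known for lactate use, was higher in astrocytes (299, 209.8 and 286 against 77.7, 97.9 and 81.3, 1.63 ± 0.19), and Ldha was not called (-0.12 ± 0.20). Eno2 did not pass the filter. Of the glycogen phosphorylases, the brain form Pygb was higher in astrocytes (647, 471 and 686 against 161, 170.4 and 175, 1.83 ± 0.18) and the liver form Pygl in microglia (6.20, 6.45 and 9.24 against 53.8, 52.9 and 65.5, -2.92 ± 0.23), while the muscle form Pygm was low and not called (-0.75 ± 0.31).

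**Figure D4:**
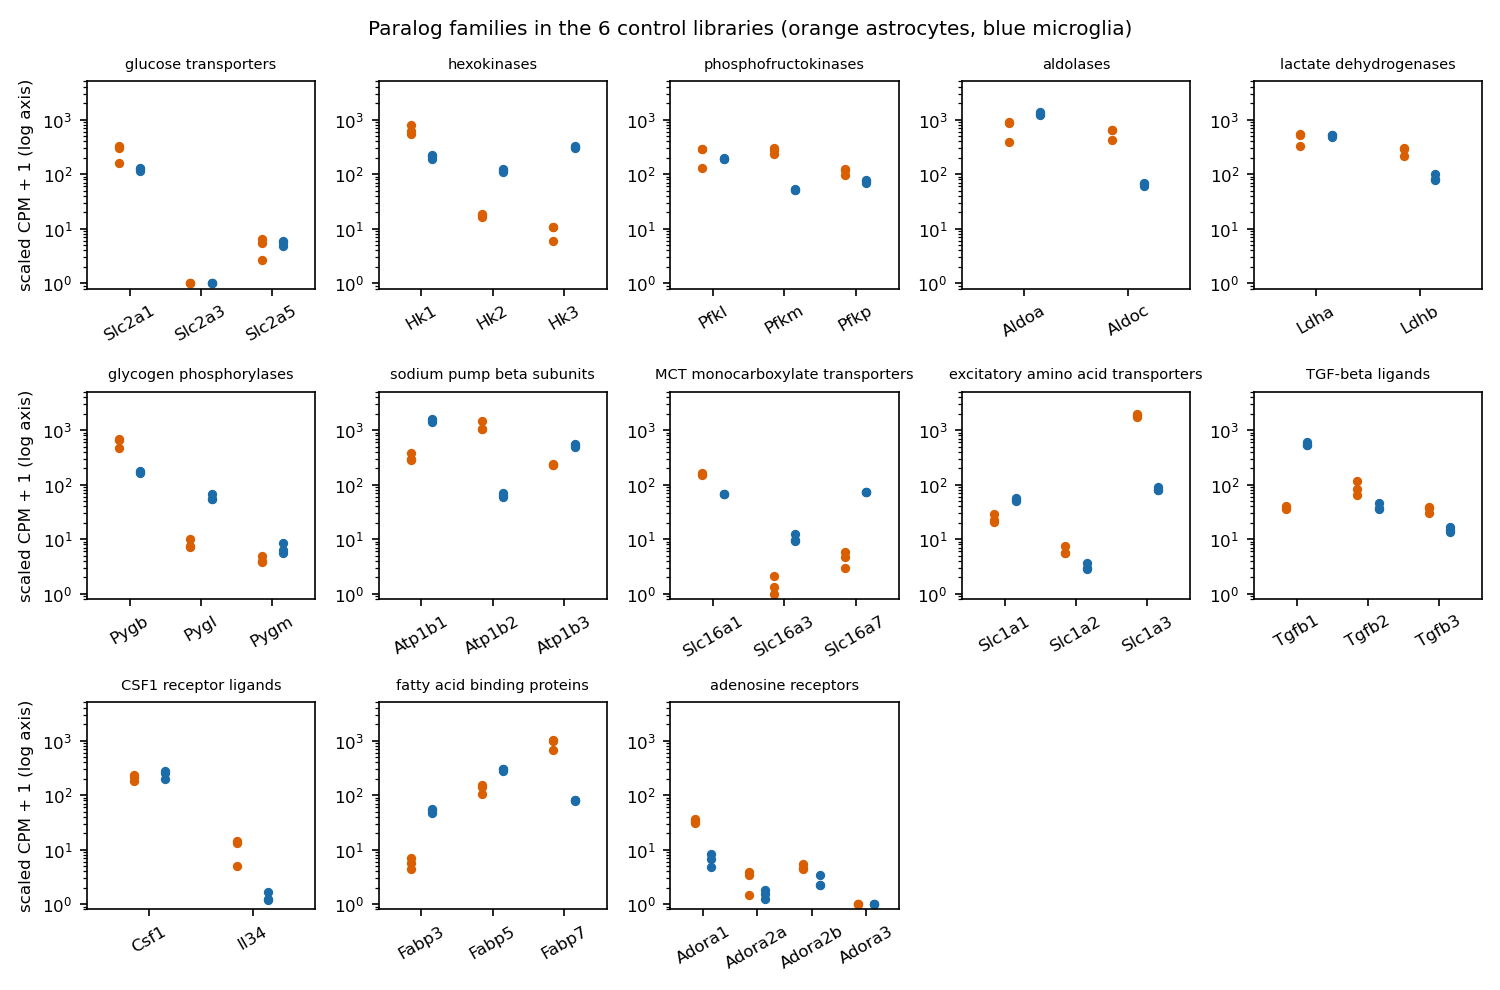
Scaled CPM plus 1 on a log axis for members of 13 paralog families, each point a control library, orange for astrocytes and blue for microglia. Hk1 against Hk2 and Hk3, Pygb against Pygl, Atp1b2 against Atp1b1 and Fabp7 against Fabp3 lie on opposite sides in the same family.

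Genes of pyruvate entry, amino acid metabolism and ketone bodies were also compared. Pdk4, a kinase that closes the entry of pyruvate into the citrate cycle, stood at 12.9, 17.7 and 16.4 scaled CPM in astrocytes and 1.20, 0.441 and 0.515 in microglia (4.32 ± 0.37), and the cycle gene with the largest difference toward microglia was Fh (-1.08 ± 0.15). Pcx, Idh3b and Acod1 are not analysed here. In the glutamate list the alanine transaminase Gpt2 was called (171, 153 and 156 against 25.4, 28.4 and 24.1, 2.63 ± 0.16) and the aspartate transaminase Got1 was the most microglial (-1.99 ± 0.24), Aldh18a1 did not pass the filter, and Prodh is not analysed here. Of 19 tested genes of fatty acid oxidation and ketone bodies, 10 were higher in astrocytes at any fold and 3 in microglia (31.4% and 30.7% of all tested genes), with a median of 0.59. At 5-fold 3 were called as higher in astrocytes, where 10.7% of all tested genes were, Cpt1c (2.75 ± 0.29) and the brain fatty acid binding protein Fabp7 among them. Fabp7 stood at 1007, 979.7 and 662 in astrocytes and 76.7, 79.8 and 81.3 in microglia (3.48 ± 0.20), whereas its paralogs Fabp5 (153, 102 and 140.1 and 302, 272 and 299, -1.14 ± 0.18) and Fabp3 (4.58, 5.99 and 3.48 and 53.6, 45.9 and 52.6, -3.50 ± 0.25) were higher in microglia. Bdh1, which interconverts ketone bodies, was the most microglial gene of that list (-1.45 ± 0.20).

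Genes of serine, glycine and folate metabolism were called in both directions. Of 14 genes, all tested, 4 were called at 5-fold as higher in astrocytes and 2 in microglia, with a median of 1.09. At any fold the counts were 8 and 3. Of all tested genes, 10.7% and 8.27% were called at 5-fold and 31.4% and 30.7% at any fold. The difference between the directions was not tested. Gldc, the decarboxylase of the glycine cleavage system, stood at 145, 128 and 176 scaled CPM in astrocytes and 7.34, 5.73 and 7.56 in microglia (4.43 ± 0.22, adjusted p = 1.50e-07), and the serine synthesis enzyme Psat1 at 264, 315 and 218 and 50.2, 56.2 and 44.8 (2.40 ± 0.19). Aldh1l1 and Cbs were the other astrocyte calls. Cytosolic Shmt1 (-2.32 ± 0.30) and mitochondrial Mthfd2 (-2.58 ± 0.18) were called in microglia, a count that fell to 1 without astrocyte replicate 2 or microglia replicate 1, and with library totals both were under 5-fold. In the glutathione list of 14 tested genes, 6 were higher in astrocytes at any fold, with a median of 0.75. Gstm1, a detoxifying transferase, was the 1 gene called at 5-fold (1128, 864 and 786 against 76.3, 73.4 and 66.8, 3.68 ± 0.19). Of all tested genes, 31.4% were higher in astrocytes at any fold and 10.7% at 5-fold. The reductase Gsr was the most microglial (-0.43 ± 0.15), a call lost when any library but astrocyte replicate 2 was left out (adjusted p up to 0.158), and Gstm5 and Ggt5 did not pass the filter.

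Arginine, creatine and polyamine metabolism held single large differences. The argininosuccinate synthase Ass1 stood at 69.0, 47.7 and 61.6 scaled CPM in astrocytes and 0.534, 0.220 and 0.515 in microglia (7.0 ± 0.33, adjusted p = 1.32e-07). Nos2, the inducible nitric oxide synthase, stood at 51.0, 44.8 and 22.5 in microglia and 0.809, 1.84 and 0.402 in astrocytes (-5.58 ± 0.52). The spermidine synthase gene Srm was called in astrocytes (2.74 ± 0.63) at a low level, and Nos1 did not pass the filter. Of 11 tested genes, 2 were called at 5-fold as higher in astrocytes and 1 in microglia, beside 10.7% and 8.27% of all tested genes, with a median of 0.16. Without astrocyte replicate 2, microglia replicate 1 or microglia replicate 2, the microglial count was 2. Ckmt1 is not analysed here.

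Genes of lipoprotein and cholesterol metabolism were weighted to microglia. Of 20 genes of lipoprotein and cholesterol handling, all tested, 7 were called at 5-fold and 15 at any fold as higher in microglia, with a median of -1.75. The shares over all tested genes were 8.27% at 5-fold and 30.7% at any fold. Lpl, the lipoprotein lipase, stood at 2777, 3751 and 3329 scaled CPM in microglia and 15.6, 29.0 and 17.5 in astrocytes (-7.32 ± 0.30, adjusted p = 7.25e-08). Apoe, usually the main astrocytic lipoprotein, stood at 8690.0, 10749 and 10383 in microglia and 3441, 1502 and 2039.8 in astrocytes (-2.09 ± 0.29), so every microglia library lay above every astrocyte library. Clusterin, encoded by Clu, went the other way (1854, 1448 and 1406 in astrocytes against 471, 538 and 456, 1.68 ± 0.17). The acyltransferase Soat1 (-2.68 ± 0.20), the lipid droplet protein Plin2 (-2.52 ± 0.18) and the hydroxylase Ch25h (-3.37 ± 0.21) were called in microglia. Of 19 cholesterol synthesis genes, all tested, 12 were higher in microglia at any fold, each under 5-fold, with a median of -0.65. Ebp (-1.65 ± 0.20) had the largest difference, and Msmo1 differed by 0.33 ± 0.16, which was called only without astrocyte replicate 3 (adjusted p = 0.0251) among the fits with a library left out.

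Enzymes of the respiratory burst, of eicosanoids and of the lysosome were microglial. All 7 tested NADPH oxidase genes were higher in microglia at any fold and 6 at 5-fold, with a median of -4.75. The catalytic subunit Cybb stood at 748, 751 and 810.0 scaled CPM in microglia and 4.85, 10.6 and 9.90 in astrocytes (-6.46 ± 0.27, adjusted p = 7.25e-08), and the ubiquitous Rac1 differed least (-1.15 ± 0.15). Nox4 did not pass the filter and was at 0 in every microglia library (1.62, 2.77 and 1.41 in astrocytes). Without astrocyte replicate 1, astrocyte replicate 2 or microglia replicate 2 it was tested, and 1 gene of the list was then called as higher in astrocytes. Of 13 tested eicosanoid genes, 6 were called at 5-fold and 9 at any fold as higher in microglia, with a median of -2.07. The lipoxygenase Alox15 (-6.05 ± 0.27), the prostaglandin D synthase Hpgds (-5.48 ± 0.23) and the cyclooxygenase Ptgs2 (-4.71 ± 0.41) were called, and Ptges2 was higher in astrocytes (1.29 ± 0.22). Ltc4s, Ptges and Ptgis did not pass the filter. Of 27 tested lysosomal genes, 26 were higher in microglia at any fold and 9 at 5-fold, with a median of -1.68. Cd68 and Ctss led, Ctsz stood at 1325, 1258 and 1318 in microglia and 95.9, 74.7 and 94.2 in astrocytes (-3.88 ± 0.17), and the sphingomyelinase Smpd1 was the exception, higher in astrocytes by 0.80 ± 0.30 with overlapping libraries and its call was lost when any library but astrocyte replicate 2 was left out (adjusted p up to 0.185). The pentose phosphate list of 8 genes, which supplies NADPH, had 5 higher in microglia at any fold and a median of -0.58, from Rpia at -1.74 ± 0.19 to Pgls at 0.31 ± 0.56. Over all tested genes, 30.7% were higher in microglia at any fold and 8.27% at 5-fold. Pgls was not called with all libraries but was without astrocyte replicate 2 (adjusted p = 7.22e-05), which lay far below the other astrocyte libraries (80.3, 9.91 and 90).

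Secreted proteins of synapse and matrix were astrocytic. Of 15 tested, 8 were called at 5-fold and 12 at any fold as higher in astrocytes, with a median of 3.43. Chrdl1, a secreted factor of astrocytes known for synapse maturation, stood at 185, 217 and 192 scaled CPM in astrocytes and 0.801, 0.220 and 1.03 in microglia (8.06 ± 0.30, adjusted p = 6.09e-08). Sparcl1, known as hevin, stood at 2872, 2296 and 1998 against 153, 145 and 145 (4.02 ± 0.19), and Gpc4 at 217, 182 and 212 against 4.14, 3.75 and 3.26. The thrombospondins Thbs4 (5.20 ± 0.29) and Thbs2 (4.09 ± 0.26), the proteoglycans Cspg5 (3.61 ± 0.22) and Ncan (at least 15.7-fold higher) and the basement membrane collagen Col4a1 (3.43 ± 0.21) were called, while Thbs1 (0.47 ± 0.21), Fn1 (0.38 ± 0.17) and Vcan (-0.50 ± 0.22) were not. Without astrocyte replicate 1 or 2, Thbs1 and Fn1 were called (adjusted p from 0.0200 to 0.0473), and without replicate 2 so was Vcan (5.99e-05). Lama1 did not pass the filter, and Gpc6, Lama2, Lamb1 and Col4a2 are not analysed here.

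The complement system was divided between the cultures. Of 16 tested genes, 8 were called at 5-fold as higher in microglia and 3 in astrocytes, with a median of -1.55. The shares over all tested genes were 8.27% and 10.7%. C3, the central component, stood at 3099.8, 2231 and 3062 scaled CPM in microglia and 32.9, 45.9 and 39.8 in astrocytes (-6.14 ± 0.24, adjusted p = 6.09e-08). The alternative pathway factors Cfd (-5.44 ± 0.36) and Cfp (-2.69 ± 0.37) and C2 (-2.43 ± 0.28) were higher in microglia beside the C1q chains. The proteases that act with C1q were astrocytic: C1s stood at 165, 186 and 162 in astrocytes and 7.21, 13.9 and 8.93 in microglia (4.12 ± 0.25), and C1r differed by 1.58 ± 0.16. C4a (3.87 ± 0.37) and the inhibitor Cfi (at least 14.8-fold higher) were also called in astrocytes. C4b and Cd55 did not pass the filter.

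Proliferation genes were present in both cultures. Of 18 tested cell cycle genes, 9 were higher in astrocytes at any fold and 1, the thymidylate synthase Tyms (-1.0 ± 0.21), in microglia, with a median of 0.50. Of all tested genes, 31.4% and 30.7% were called in these directions. Mki67 stood at 158, 287 and 157 scaled CPM in astrocytes and 116, 139 and 160.1 in microglia, with overlapping groups and replicate 2 the highest library (adjusted p = 0.0887, and 0.0485 without astrocyte replicate 1). Aurkb, a mitotic kinase, was called at 5-fold (224, 186 and 239.5 against 16.4, 19.6 and 19.4, 3.55 ± 0.18), whereas its paralog Aurka was not called (-0.07 ± 0.18). Aurkb was the only member called at 5-fold, where 10.7% of all tested genes were called toward astrocytes.

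The same contrast in fibril-treated cells was set beside that in untreated cells. Astrocytes and microglia treated with Aβ42 fibrils, 3 libraries of each, were fitted on their own and differed at 5-fold in 857 genes higher in astrocytes (7.58% of 11311 tested) and 805 higher in microglia (7.12%). With Aβ40 fibrils the counts were 985 (8.96% of 10989) and 791 (7.2%). With Aβ42, 635 astrocyte calls were also control calls, 54.4% of the control list and 74.1% of the treated list, and 520 microglia calls, 57.8% and 64.6%. With Aβ40 the shared calls were 719 (61.6% and 73.0%) and 543 (60.4% and 68.6%). In all 3 conditions 583 genes were called as higher in astrocytes and 487 in microglia. Whether the contrast differed between conditions was not tested gene by gene.

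Marker levels shifted between conditions while the direction of the lists was the same in each. The 20 astrocyte markers summed to 15395, 11795 and 12749 scaled CPM in control astrocytes, to 8265, 8333 and 8352 with Aβ42 and to 9307, 9163 and 9357 with Aβ40, each condition on its own scale. The 20 microglia markers summed to 13583, 13344 and 15430 in control microglia, to 5357, 3990 and 4568 with Aβ42 and to 4637, 4666 and 5354 with Aβ40. The same genes summed to 1018, 834 and 956 in control astrocytes and to between 378 and 439 in treated ones. Such sums follow the most abundant members, and not every member moved with them. Aldh1l1, Acsbg1 and Slc1a2 stood higher in every fibril-treated astrocyte library than in any control one, as did Itgam in microglia. Choroid plexus genes in microglia were between 4160 and 5184 with fibrils, and motile cilia genes in astrocytes between 2611 and 3556, so both signals were present in each condition. Sums of all 9 libraries of a cell type lay on 1 side of all 9 of the other for these 4 lists.

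**Figure D5:**
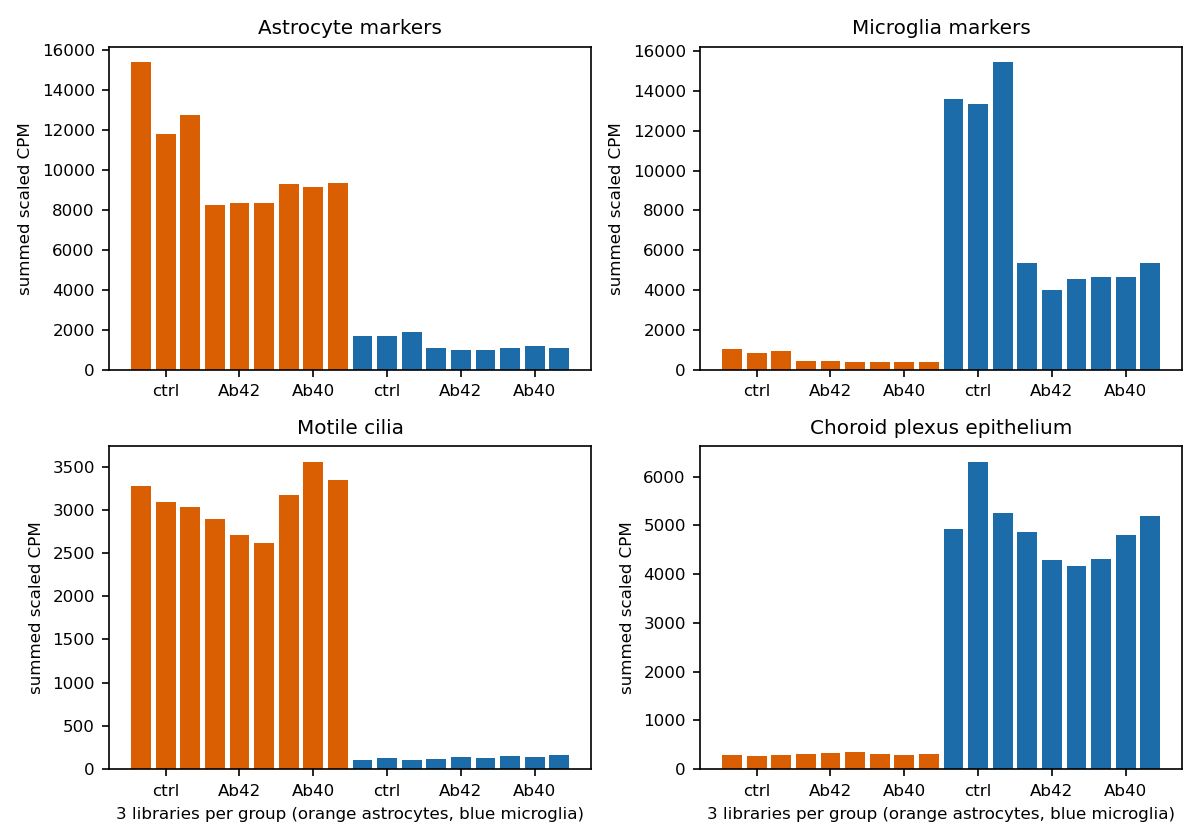
Summed scaled CPM of the astrocyte markers, microglia markers, motile cilia and choroid plexus lists in each of the 18 libraries, orange bars for astrocytes and blue for microglia, 3 libraries a group in the order control, Aβ42 and Aβ40. Microglia markers reach 13344 to 15430 in control microglia and 3990 to 5357 in fibril-treated microglia, and choroid plexus genes stay at 4160 or more in all microglia libraries.

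Single genes behaved differently across the conditions. The difference in Csf1r was -4.57 in control cells, -5.35 with Aβ42 and -6.07 with Aβ40, and that in Gfap was 6.02, 4.94 and 5.59. For Spi1 it was -4.44, -6.47 and -6.78. These genes were called in the same direction in each condition. Csf1r itself stood lower with fibrils in both cell types, each condition on its own scale. In microglia it was at 2736, 2651 and 3092 scaled CPM without fibrils. With Aβ42 it was at 197, 164 and 211 there, and with Aβ40 at 199, 171 and 184. In astrocytes Csf1r was at 119.9, 109 and 127 without fibrils, 5.57, 4.18 and 4.01 with Aβ42 and 2.83, 2.40 and 3.03 with Aβ40. C3 stood at 2767, 2739 and 2779 scaled CPM in Aβ42-treated astrocytes and 2657, 2749.6 and 2669.6 in Aβ42-treated microglia, a difference of 0.04, and at 0.04 with Aβ40, against -6.14 in control cells. The difference in Irf8 was -4.11 in control cells and -0.01 and -0.41 with the fibrils, and that in Lpl -7.32, -2.54 and -1.89. The purine receptors P2ry12 and P2ry13, Gpr34 and Cx3cr1 passed the filter in the control libraries alone. The genes of this paragraph were chosen after their values were seen.

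The annotation behind each table is not stated and differs between the cell types, so a gene read under different definitions in them can differ for that reason, which was not tested. Cell type goes with the way the cells were isolated, so the 2 cannot be told apart here.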

How the data were processed

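The count tables deposited by the authors for both cell types hold 1 column of raw counts a library, which is the column used. The authors aligned reads with STAR to rn5 and worked with Salmon and DESeq2. Members and gene lists were chosen with earlier results of these data known. The rule for naming genes took every marker and paralog, the extremes, exceptions and genes at or under 3 counts in each list, the 10 called genes of smallest p in each direction, the 5 of largest fitted difference with at least 10 counts in every library of the higher group, and the 5 symbols of most counts in 1 table alone. Genes named beyond it were chosen after their values were seen. Counts were fitted in edgeR 4.0.16 (R 4.3.3, limma 3.58.1) with filterByExpr at its defaults, TMM factors and the quasi-likelihood test, adjusted by Benjamini-Hochberg. Python 3.11.15, pandas 2.3.3, numpy 2.4.6 and matplotlib 3.10.9 made the tables and figures. Alternatives were DESeq2 1.42.0 size factors and Wald test, library totals, upper quartile factors, no filter, a mean of at least 10 counts, a replicate block, a fit of all 18 libraries, fold thresholds of 2 and 10 and each library left out. Joining symbols renamed between the tables was added after seeing the data. The pipeline was tested on simulated data in which 200 of 10869 genes were changed 8-fold, evenly in both directions. In the real contrast 62.2% of tested genes were called at any fold, so that simulation cannot check the scaling. Some members of the lists and families are not reported here.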

Additional observations from a re-analysis of the deposited data

Results flagged for a closer look

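For 9 genes the contrast of astrocytes with microglia was called at 5-fold in opposite directions in control and fibril-treated cells, with no overlap between cell types in either condition. Among them, higher in microglia without fibrils and in astrocytes with Aβ42 were the dehydrogenase Dhrs9 (4.03), the secreted Olfm4 (fitted 3.31), the antigen presentation genes RT1-Da (3.67) and Cd74 (2.74), the uncharacterised RGD1309362 (2.33) and the ribonuclease Zc3h12d (2.42), given as log2 of astrocytes minus microglia with fibrils. The non-coding H19 (-3.17) and the keratin Krt19 (-2.85) went the other way. With Aβ40 the values were 3.85 for Dhrs9, a fitted 7.18 for Olfm4, 3.11 for RT1-Da and -2.95 for H19. For Olfm4 every treated microglia library was at or under 3 counts, so it was at least 2.38-fold higher in astrocytes with Aβ42 and at least 1.86-fold with Aβ40, both bounds under 5-fold. Without astrocyte control replicate 3 the control call of RT1-Da was lost (adjusted p = 0.0668). Whether these contrasts differ between conditions was not tested. In addition, symbols listed for 1 cell type alone, which the comparison leaves out, held many counts summed over the 3 control libraries. In microglia these were Sepp1 (21309), Atp5b (17073) and Atp8b2 (14271), and in astrocytes LOC100911498 (17927) and Atp5f1b (17208). Sepp1, Atp5b and Atp5f1b have a renamed partner in the other table.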

How the results depend on the processing

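Every one of the 2066 calls at 5-fold had the same sign in each setting in which the gene was tested, and the counts of calls in control cells stayed within 1.5 times under every scaling, filter and test tried. With each control library left out in turn, 1157 to 1301 genes were called as higher in astrocytes and 887 to 958 as higher in microglia at 5-fold, and 2930 to 4184 and 2825 to 4155 at any fold. A fold threshold of 2 gave 2524 and 2158 genes in control cells, 2154 and 1949 with Aβ42 and 2542 and 2027 with Aβ40, and a threshold of 10 gave 693 and 561, 452 and 536, and 537 and 541, as each threshold's own construction makes. With joined symbols, added after seeing the data, the counts were 1196 and 914. Library totals moved the astrocyte share of 5-fold calls from 56.5% to 62.7%. Where the count of called members of a list moved by over 1.5 times, it changed by at most 2 genes. Among 324 genes followed through the settings, library totals ended the call of 5 and added a call in 8. Upper quartile factors ended 5 and added 7, the replicate block 3 and 2, and the fit of all 18 libraries 1 and 5. DESeq2 size factors and the DESeq2 Wald test each ended 1, and no filter ended 1 and added 1. These changes are given beside the gene for only some of them. The sign of some named genes that were not called changed. Library totals gave 0.19 for Aurka, 0.10 for Cnp, 0.042 for Csf1, 0.15 for Cxcr4, 0.14 for Ldha, 0.013 for Lrp1, 0.18 for Nfib and 0.17 for Slc2a5. Upper quartile factors gave 0.10 for Aurka, 0.014 for Cnp, 0.060 for Cxcr4, 0.048 for Ldha, 0.084 for Nfib and 0.078 for Slc2a5, and the cause was not tested. With a library left out, the range was -0.25 to 0.028 for Cnp, -0.054 to 0.21 for Glul, -0.017 to 0.59 for Krt18, -0.25 to 0.074 for Ldha, -0.43 to 0.089 for Nfib, -0.12 to 0.80 for Pgls and -0.52 to 0.24 for Slc2a5. Depth limits the lowest genes, since 3 counts were 0.809 scaled CPM in astrocyte replicate 1 and 0.201 in replicate 3. With replicate numbers as a replicate block, the counts were 1157, 910, 3339 and 3361 in control cells, 847 and 807 with Aβ42 and 985 and 793 with Aβ40, and Pgls was -0.056. Deviations of astrocyte and microglia libraries of the same number correlated at 0.0823, 0.0807 and 0.0359, and those of different numbers at -0.0980, 0.0415, -0.0496, -0.0502, -0.00427 and -0.0277.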
